A study of Homo sapiens with 12 samples.

Results

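The insulin and insulin-like growth factor (IGF) signalling genes described here are INSR, IGF1R, IGF2R, IGF2, IRS1, IRS2, IGFBP1, IGFBP2, IGFBP3 and IGFBP4. They were chosen by name, as the rows of the deposited table whose identifiers carry these symbols, and all 10 were found among 62475 genes. Messenger RNA was sequenced from HepG2 cells, a line derived from a human liver tumour, in 4 groups of 3 biological replicates. The groups were cells with HDAC1_S434A treated with H89, cells with HDAC1_S434A without H89, cells with wild-type HDAC1 (WT) treated with H89, and WT cells without H89. HDAC1 is a class I histone deacetylase, the S434A form carries alanine in place of a serine, and H89 inhibits protein kinase A (PKA). Neither the dose and time of H89, nor how the mutant cells were made, nor the number of clones is given in the sources used here.

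Insulin and the IGFs act through related receptor tyrosine kinases, the insulin receptor and the type 1 IGF receptor, which phosphorylate the insulin receptor substrates and so engage PI3 kinase and AKT. The type 2 IGF receptor lacks kinase activity and carries IGF2 to lysosomes, and the IGF binding proteins hold IGFs in the extracellular space and control their access to receptors. In liver, insulin signalling restrains glucose output, and the liver is a main source of circulating IGFs and of several of their binding proteins.

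The libraries held 17562754 to 37187794 counted read pairs, and 14435 genes passed the filter on low counts, among them all 10 members. Make-up varied with the group. Transcripts of ribosomal proteins made up 7.93 to 7.95% of counts in S434A with H89, 9.51 to 11.5% in S434A without H89, 7.38 to 7.78% in WT with H89 and 19.5 to 20.0% in WT without H89. Across genes, levels relative to the mean of all libraries had a Spearman rho with exonic length of 0.42 to 0.43, -0.20 to -0.08, 0.43 to 0.45 and -0.42 to -0.41 in the same order of groups. The rho with GC content was -0.45 to -0.31, 0.12 to 0.82 (highest in replicate 1), -0.44 to -0.22 and -0.11 to -0.07. Mitochondrial mRNA made up 5.57 to 5.94%, 3.16 to 7.02%, 4.91 to 6.26% and 1.48 to 1.51% of counts in the same order. That share was lowest in WT without H89, the group in which most members were lowest. Values are therefore also given from a second fit, in which a smooth dependence on GC content and exonic length was taken out of every library (called the trends), and the part of these differences in the results was otherwise not tested. Spread between replicates, as a biological coefficient of variation, was 0.0547 in S434A with H89, 0.351 in S434A without H89, 0.0733 in WT with H89 and 0.0191 in WT without H89. All 11 hepatocyte and HepG2 markers exceeded a level of 1 CPM (counts scaled to library size) in every library. Their summed level was 39689 to 41073 CPM in S434A with H89, 25615 to 49322 CPM in S434A without H89, 39086 to 43923 CPM in WT with H89 and 68400.3 to 69125 CPM in WT without H89, with replicate 1 of S434A without H89 the lowest. The part of these markers in the results was not tested. Of 10 fibroblast markers only PDGFRB exceeded 1 CPM. Among 9 blood and endothelial markers, PTPRC, CD3E, HBB and KDR were at 0 throughout, and LYZ made up nearly all of the summed level of 2021 to 2078 CPM in S434A with H89, 2378 to 2898 CPM in S434A without H89, 1869 to 2037 CPM in WT with H89 and 4350 to 4475 CPM in WT without H89. HDAC1 itself was at 552 to 680 CPM, 659 to 752 CPM, 665 to 732 CPM and 679 to 704 CPM in the same order, and gene counts do not show the mutation. In bulk RNA, fewer cells expressing a gene and less RNA per cell cannot be told apart.

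Most members were lowest in WT cells without H89 and stood at similar, higher levels in the other 3 groups. In S434A against WT without H89, 6 members rose past 2-fold at an adjusted p under 0.05 in edgeR's quasi-likelihood test (INSR, IGF1R, IGF2R, IGF2, IRS1 and IRS2), where 22.9% of all genes tested passed that rule in either direction and 11.6% upward and 11.3% downward. With H89 in WT, 6 members passed the same rule, against 38.0% of genes, namely the first 5 of these upward (22.2% of genes) and IGFBP3 downward (15.8%). With H89 in S434A, IGFBP3 was the only member to pass, and it fell, where 17.6% of genes passed, 15.2% upward and 2.35% downward. In S434A against WT with both under H89, no member passed, and neither did any gene (0%). The 2 comparisons of S434A with WT share no libraries, but the comparison of S434A with WT without H89 and that of H89 in WT share the WT libraries without H89, so their values are not independent.

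**Figure D1:**
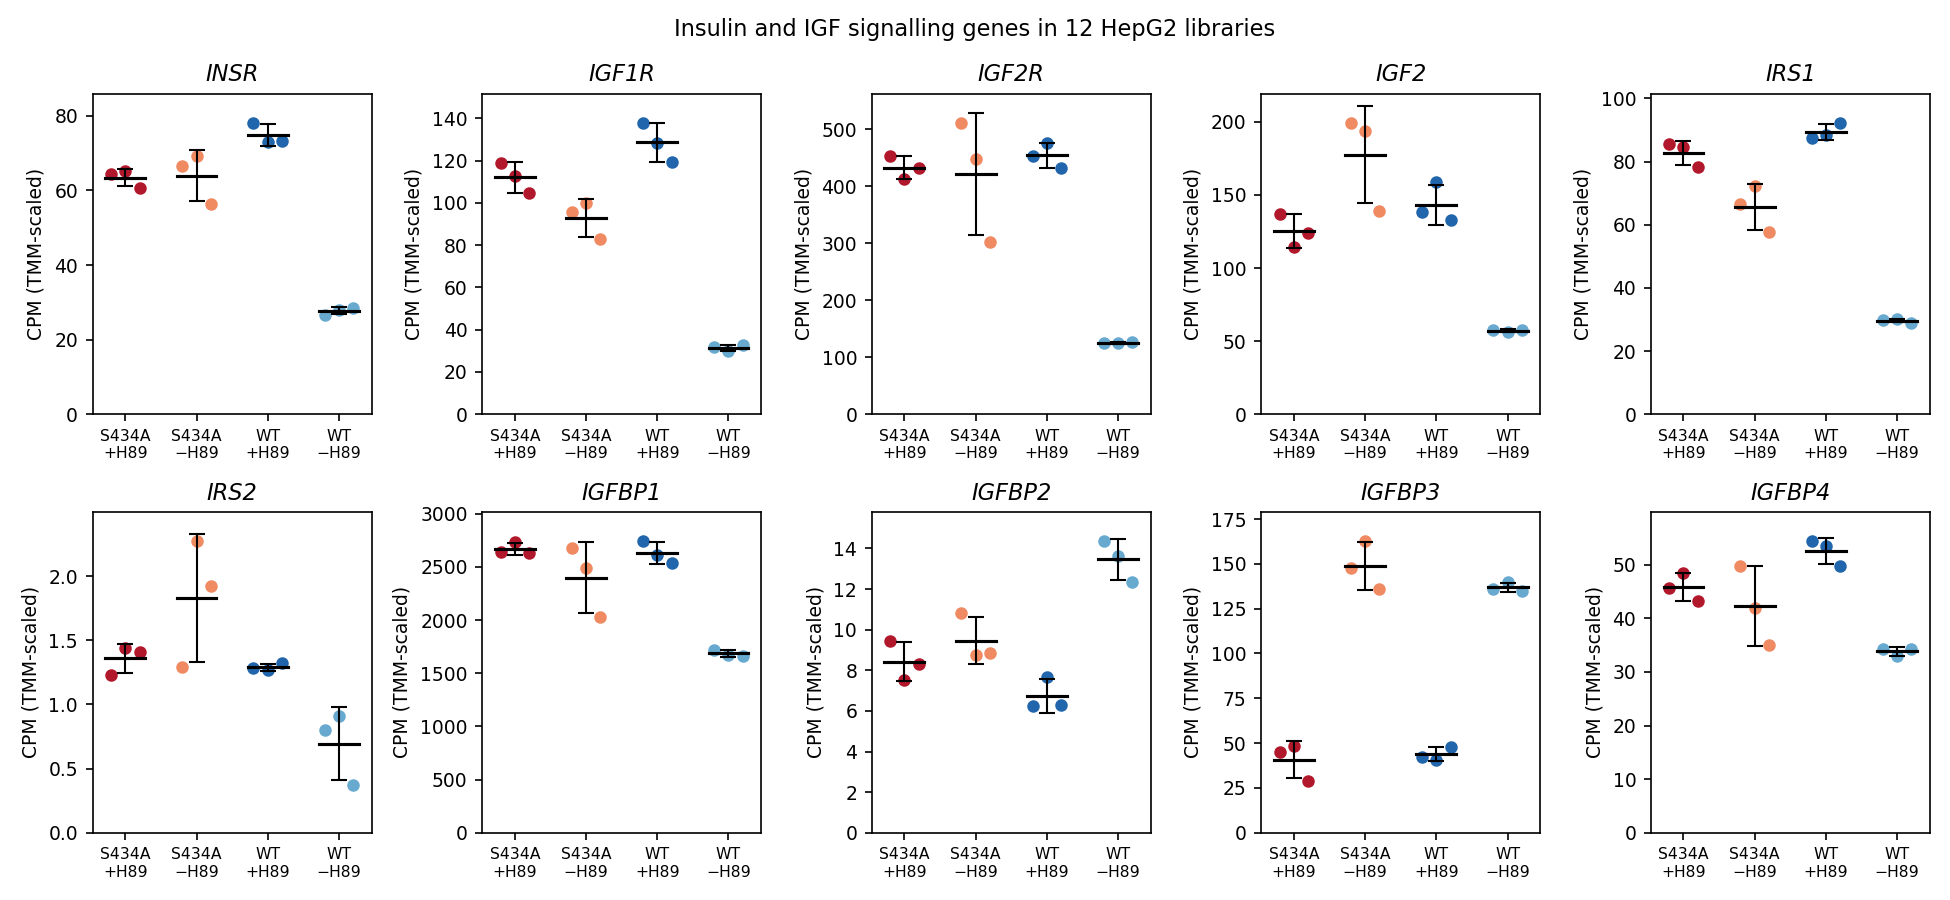
TMM-scaled CPM of the 10 members (vertical axes, each starting at 0) in each library of S434A with H89, S434A without H89, WT with H89 and WT without H89, from left to right. Points are libraries, and bars are the mean and SD of 3 replicates. INSR, IGF1R, IGF2R, IGF2 and IRS1 are lowest in the 3 WT libraries without H89, whereas IGFBP3 splits by H89, with 29.1 to 48.1 CPM in the 6 libraries with H89 and 135.0 to 163 CPM in the 6 without it.

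Promoter sequences are shown for the 3 receptors and IRS1, which rose together in both comparisons that have untreated WT cells as the control, and for IGFBP3, which fell with H89 in both genotypes. They were picked after the values were seen. IRS2 and IGFBP4 also rose in both of those comparisons, and their windows are not shown. They are RefSeq windows on GRCh38.p14, written 5′ to 3′ on the strand of the gene, from 250 bases before to 50 bases after the annotated start. Of the 10 members, 8 had a RefSeq window, with 10 windows in all. Capitals mark GGGCGG, the GC box bound by Sp1-type factors, on either strand. The INSR window is chr19:7294365-7294664 (minus strand), that of IGF1R chr15:98648289-98648588 (plus strand) and that of IGF2R chr6:159968832-159969131 (plus strand). The IRS1 window is chr2:226799771-226800070 (minus strand) and that of IGFBP3 chr7:45921223-45921522 (minus strand).
INSR: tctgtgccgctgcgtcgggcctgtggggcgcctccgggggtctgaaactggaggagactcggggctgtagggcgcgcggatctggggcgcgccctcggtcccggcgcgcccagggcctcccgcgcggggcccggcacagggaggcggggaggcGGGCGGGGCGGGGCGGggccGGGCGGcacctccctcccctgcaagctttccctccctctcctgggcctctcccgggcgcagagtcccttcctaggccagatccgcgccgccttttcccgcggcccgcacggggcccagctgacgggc
IGF1R: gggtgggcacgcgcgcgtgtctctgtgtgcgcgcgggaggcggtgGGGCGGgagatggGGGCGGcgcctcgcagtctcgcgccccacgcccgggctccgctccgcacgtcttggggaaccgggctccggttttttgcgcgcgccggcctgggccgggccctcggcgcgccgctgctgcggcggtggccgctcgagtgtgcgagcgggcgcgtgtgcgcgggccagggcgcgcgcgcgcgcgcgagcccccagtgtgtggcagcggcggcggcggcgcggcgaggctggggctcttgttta
IGF2R: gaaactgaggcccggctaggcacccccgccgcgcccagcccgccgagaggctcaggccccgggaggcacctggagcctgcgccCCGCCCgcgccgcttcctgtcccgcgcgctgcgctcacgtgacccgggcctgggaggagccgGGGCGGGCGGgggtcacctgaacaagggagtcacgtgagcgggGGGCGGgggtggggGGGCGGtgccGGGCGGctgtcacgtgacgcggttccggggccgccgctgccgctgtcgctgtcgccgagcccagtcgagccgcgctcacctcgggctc
IRS1: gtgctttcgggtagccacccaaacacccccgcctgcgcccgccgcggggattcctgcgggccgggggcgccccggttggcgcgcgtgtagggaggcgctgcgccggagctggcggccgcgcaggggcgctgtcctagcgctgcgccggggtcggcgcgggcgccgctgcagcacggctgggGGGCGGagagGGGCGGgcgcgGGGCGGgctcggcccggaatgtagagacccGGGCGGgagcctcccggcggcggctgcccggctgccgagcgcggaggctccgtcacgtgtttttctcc
IGFBP3: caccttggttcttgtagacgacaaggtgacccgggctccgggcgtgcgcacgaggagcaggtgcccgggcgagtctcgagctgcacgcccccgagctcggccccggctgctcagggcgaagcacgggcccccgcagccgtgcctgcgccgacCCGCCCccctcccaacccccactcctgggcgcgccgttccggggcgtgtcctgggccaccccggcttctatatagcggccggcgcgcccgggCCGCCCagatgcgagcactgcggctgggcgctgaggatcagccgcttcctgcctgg
The INSR, IGF1R, IGF2R and IRS1 windows held 4, 2, 6 and 4 matches to GGGCGG, counting both strands and allowing matches to overlap, and the IGFBP3 window held 2. Of 35116 windows of all genes, 45.0% held at least 1 match. GC content was 78.3% in the INSR window, 79.7% in that of IGF1R, 78.7% in that of IGF2R, 79.3% in that of IRS1 and 74.7% in that of IGFBP3, where the median of all windows was 58.7%. The full cAMP response element TGACGTCA was in none of the 10 member windows, and in 1.85% of all windows. The shorter core TGACG was found once each in INSR, IGF2R and IRS1, and in 24.6% of all windows. The insulin response core TGTTTTG was found once, in IRS2, and in 4.92% of all windows. The FOXO core TGTTTAC was in none of the 10 member windows, and in 3.42% of all windows. TATAAA was found once, in IGFBP4, and in 11.5% of all windows. A match is a stretch of letters and not a measured site.

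IGF2 (ENSG00000167244.21_10, hg19 chr11:2150342-2162468) encodes a growth factor made abundantly in fetal liver and in many liver tumours. Its level was 137, 114 and 124 CPM in S434A with H89, 199, 194 and 139 CPM in S434A without H89, 139, 159 and 133 CPM in WT with H89, and 57.9, 56.1 and 57.5 CPM in WT without H89. Every library of the other 3 groups lay above every WT library without H89, and every S434A library without H89 lay above every S434A library with H89. IGF2 rose by 1.63 (log2; SE 0.13, adjusted p = 2.4e-06) in S434A against WT without H89, and by 0.93 with the trends removed. With H89 it rose by 1.33 in WT (SE 0.13, adjusted p = 4.78e-06; 0.87 with the trends removed). In S434A, IGF2 fell by 0.50 (log2) with H89 (SE 0.13, adjusted p = 0.00883), and by 0.22 with the trends removed (adjusted p = 0.0197). Fitted on the S434A libraries alone, that call ended (adjusted p = 0.0655). Of the exonic bases of IGF2, 72.1% are shared with 4 other annotated genes, and of those ENSG00000284779 and INS-IGF2 had 0 counts in all 12 libraries, so reads there may have been left out of IGF2 by the counting.

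INSR (ENSG00000171105.14_7, hg19 chr19:7112266-7294425) encodes the insulin receptor. It was at 64.4, 65.1 and 60.8 CPM in S434A with H89, 66.5, 69.1 and 56.2 CPM in S434A without H89, 78.2, 73.0 and 73.4 CPM in WT with H89, and 26.7, 27.9 and 28.5 CPM in WT without H89. The WT libraries without H89 were far below all 9 others, and those of WT with H89 were above all others. INSR rose by 1.21 (log2; SE 0.08, adjusted p = 8.57e-07) in S434A against WT without H89, and by 1.43 (SE 0.08, adjusted p = 6.82e-08) with H89 in WT. With the trends removed these were 0.62 and 0.77, below 2-fold but past the test. In S434A the difference with H89 was -0.01 (95% interval -0.19 to 0.17, adjusted p = 0.917).

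IGF1R (ENSG00000140443.15_8, hg19 chr15:99191768-99507759) encodes the type 1 IGF receptor, the main signalling receptor for both IGFs. It was at 119, 113 and 105 CPM in S434A with H89, 95.6, 100.1 and 83.0 CPM in S434A without H89, 138, 129 and 119 CPM in WT with H89, and 32.0, 29.9 and 32.7 CPM in WT without H89. No library of WT without H89 came near the other groups, and no library of S434A with H89 overlapped S434A without H89. With H89 in WT, IGF1R rose by 2.03 (log2; SE 0.09, adjusted p = 1.16e-08), a 4.08-fold change and the largest among the members in that fit. It rose by 1.20 with the trends removed, less than IGFBP1 (1.31) and less in size than IGFBP3 (-1.62) and IGFBP2 (-1.26). It rose by 1.56 (SE 0.09, adjusted p = 4.35e-07) in S434A against WT without H89, and by 0.88 with the trends removed. In S434A it rose by 0.27 with H89 (SE 0.09, adjusted p = 0.0234), a call that ended with the trends removed (0.16, adjusted p = 0.0573), with RLE factors (0.18, adjusted p = 0.0995) and when any of 7 single libraries was left out. These were the 3 of S434A with H89, the 3 of WT with H89 and replicate 2 of S434A without H89, with values of 0.10 to 0.20 and adjusted p of 0.113 to 0.431.

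IGF2R (ENSG00000197081.15_9, hg19 chr6:160390114-160534539) encodes the type 2 receptor, which clears IGF2 and sorts lysosomal enzymes. It was at 452, 413 and 432 CPM in S434A with H89, 511, 448 and 303 CPM in S434A without H89, 453, 476 and 433 CPM in WT with H89, and 125, 125 and 127 CPM in WT without H89. Replicate 3 of S434A without H89 was the lowest outside WT without H89, yet still over the highest of those 3. IGF2R rose by 1.74 (log2; SE 0.15, adjusted p = 3.9e-06; 1.04 with the trends removed) in S434A against WT without H89, and by 1.85 (SE 0.15, adjusted p = 1.08e-06; 0.86 with the trends removed) with H89 in WT. With the trends left in, only 144 of the 14435 genes tested had a higher fold change than IGF2R in S434A against WT without H89. In S434A its difference with H89 was 0.04 (95% interval -0.28 to 0.36, adjusted p = 0.832), with a sign that depends on the scaling (-0.05 with RLE factors).

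IRS1 (ENSG00000169047.5_5, hg19 chr2:227596033-227664475) and IRS2 (ENSG00000185950.9_6, hg19 chr13:110405042-110438930) encode the adaptors that carry the signal of both receptor kinases to PI3 kinase. IRS1 was at 85.5, 84.5 and 78.4 CPM in S434A with H89, 66.7, 72.2 and 57.9 CPM in S434A without H89, 87.3, 88.5 and 92.3 CPM in WT with H89, and 29.8, 30.0 and 29.0 CPM in WT without H89. The 4 groups did not overlap each other for IRS1. It rose by 1.15 (log2; SE 0.08, adjusted p = 1.06e-06; 0.66 with the trends removed) in S434A against WT without H89. With H89 in WT it rose by 1.59 (SE 0.08, adjusted p = 3.12e-08), and by 1.004 with the trends removed. In S434A it rose by 0.34 with H89 (SE 0.08, adjusted p = 0.00644; 0.25 with the trends removed). That last call ended with no filter on low counts (adjusted p = 0.0958) and when fitted on the S434A libraries alone (adjusted p = 0.0731). It also ended without replicate 1 or 2 of S434A with H89 or without any replicate of WT with H89, with values of 0.18 to 0.21 and adjusted p of 0.0594 to 0.121.

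IRS2, the adaptor that liver uses beside IRS1, was close to the limit of detection, at 10 to 41 counts per library. It was at 1.23, 1.44 and 1.41 CPM in S434A with H89, 1.29, 2.27 and 1.92 CPM in S434A without H89, 1.28, 1.27 and 1.32 CPM in WT with H89, and 0.80, 0.91 and 0.37 CPM in WT without H89. All 9 libraries of the first 3 groups lay above those of WT without H89. IRS2 rose by 1.40 (log2; SE 0.28, adjusted p = 0.00136) in S434A against WT without H89, and with the trends removed the value was 0.56 and did not pass (adjusted p = 0.151), although it was 0.88 and passed when replicate 1 of S434A without H89 was also left out (adjusted p = 0.00562). With H89 in WT it rose by 0.89 (SE 0.29, adjusted p = 0.0175), and with the trends removed the value was 0.24 (adjusted p = 0.529). The H89 call in WT also ended without any 1 library of S434A with H89 or WT with H89 and without replicate 3 of WT without H89, with adjusted p of 0.0522 to 0.0849 and a value of 0.59 without that WT replicate.

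IGFBP1 (ENSG00000146678.10_5, hg19 chr7:45927959-45933259) encodes a binding protein made by liver whose gene insulin represses. It was at 2643, 2736 and 2635 CPM in S434A with H89, 2675, 2494 and 2026 CPM in S434A without H89, 2743, 2609 and 2538 CPM in WT with H89, and 1724, 1675 and 1660 CPM in WT without H89. Again the WT libraries without H89 were the lowest, but by less than for the receptors. IGFBP1 rose by 0.51 (log2; SE 0.09, adjusted p = 0.000411) in S434A against WT without H89, and by 0.64 (SE 0.09, adjusted p = 5.65e-05) with H89 in WT. Both were larger with the trends removed, at 0.86 and 1.31. In S434A the value with H89 was 0.16 (adjusted p = 0.15), and with the trends removed IGFBP1 rose by 0.41 (adjusted p = 0.00228). Without replicate 1 of S434A without H89, and with the trends left in, that H89 value was 0.24 and passed (adjusted p = 0.0192).

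IGFBP2 (ENSG00000115457.10_8, hg19 chr2:217497551-217529159), another secreted binding protein, was the member that ran opposite to the receptors. It was at 9.43, 7.52 and 8.30 CPM in S434A with H89, 10.8, 8.75 and 8.83 CPM in S434A without H89, 6.22, 7.68 and 6.27 CPM in WT with H89, and 14.4, 13.6 and 12.4 CPM in WT without H89. The 3 WT libraries without H89 were the highest, and the other groups ran from 6.22 to 10.8 CPM. IGFBP2 fell by 0.51 (log2; SE 0.14, adjusted p = 0.008) in S434A against WT without H89, and by 1.07 with the trends removed. That call did not hold in limma-voom with weights that allow each group its own spread (adjusted p = 0.113) or when only the 2 groups entered the fit (-0.30, adjusted p = 0.143). With H89 in WT it fell by 0.9999 (SE 0.14, adjusted p = 7.02e-05), just short of 2-fold (-1.15 with RLE factors), and by 1.26 with the trends removed. With H89 in S434A the value was -0.17 (95% interval -0.48 to 0.14), and 0.15 with the trends removed, neither of which passed.

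IGFBP3 (ENSG00000146674.15_10, hg19 chr7:45951844-45961473), the main carrier of IGFs in serum and a neighbour of IGFBP1 on chromosome 7, separated the libraries by H89 and not by genotype. It was at 45.1, 48.1 and 29.1 CPM in S434A with H89, 148, 163 and 136 CPM in S434A without H89, 42.4, 40.6 and 48.1 CPM in WT with H89, and 136, 140 and 135.0 CPM in WT without H89. Every library with H89 was below every library without it, and the genotypes overlapped in both conditions. IGFBP3 fell by 1.87 (log2; SE 0.16, adjusted p = 2.56e-05; 1.70 with the trends removed) with H89 in S434A, to 0.274 of the level without H89. In WT it fell by 1.65 with H89 (SE 0.16, adjusted p = 4.33e-06; 1.62 with the trends removed), to 0.319 of the level without H89. With the trends left in, only 39 of the 14435 genes tested had a lower fold change with H89 than IGFBP3 in S434A, and in WT 843 genes did. Between genotypes without H89 the value was 0.12 (95% interval -0.22 to 0.46, adjusted p = 0.532), and -0.023 with the trends removed. Fitted on those 2 groups alone it was 0.33 and passed (adjusted p = 0.0187).

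IGFBP4 (ENSG00000141753.7_5, hg19 chr17:38599702-38613977), whose protein inhibits IGF action, was at 45.6, 48.5 and 43.3 CPM in S434A with H89, 49.8, 42.0 and 35.0 CPM in S434A without H89, 54.4, 53.6 and 49.8 CPM in WT with H89, and 34.4, 32.9 and 34.3 CPM in WT without H89. The lowest library of S434A without H89 lay just above the highest of WT without H89. IGFBP4 rose by 0.63 (log2; SE 0.11, adjusted p = 0.000417; 0.90 with the trends removed) with H89 in WT. In S434A against WT without H89 it rose by 0.32 (SE 0.11, adjusted p = 0.0296; 0.19 with the trends removed, adjusted p = 0.0205), a call that ended with RLE factors (0.25, adjusted p = 0.0621) and when any library but replicate 3 of S434A without H89 was left out (adjusted p of 0.0536 to 0.0903, and a value of 0.18 without replicate 1 of S434A without H89). With H89 in S434A the value was 0.12 and did not pass, while with the trends removed IGFBP4 rose by 0.50 (adjusted p = 5.51e-05). Without replicate 1 of S434A without H89, and with the trends left in, it rose by 0.25 (adjusted p = 0.0313).

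**Figure D2:**
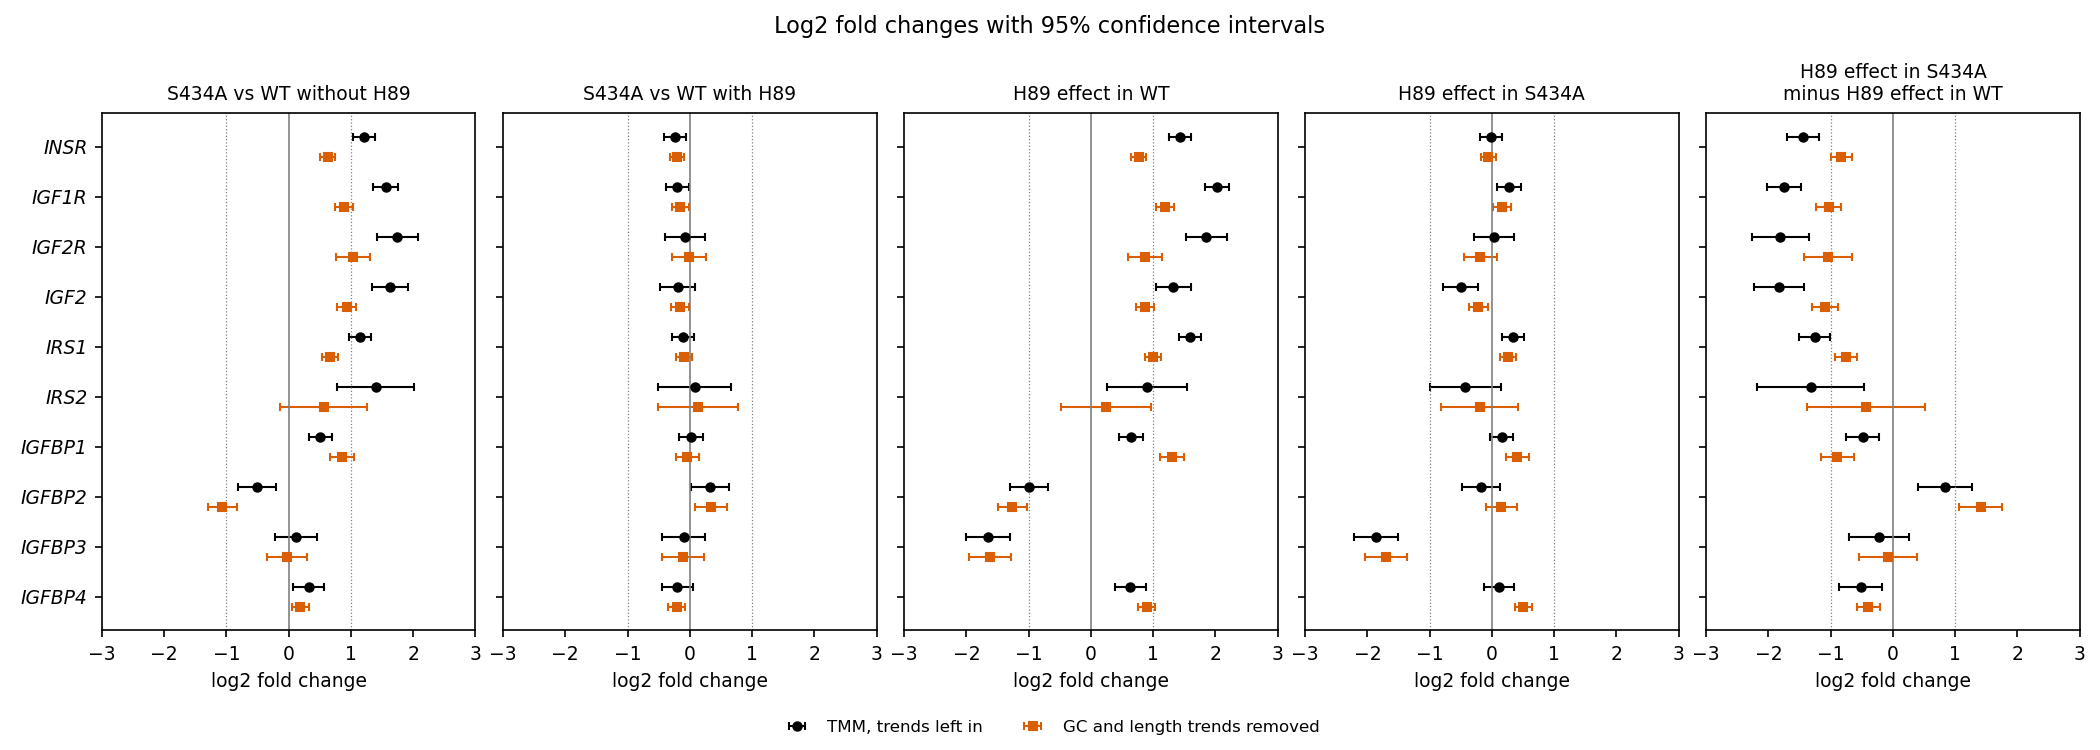
Log2 fold changes of the 10 members (rows) with 95% confidence intervals in the 5 comparisons (panels), with the GC and length trends left in (black circles) or removed (orange squares). Dotted lines mark 2-fold. In the panels of S434A against WT without H89 and of H89 in WT the receptors, IGF2 and IRS1 lie to the right of 0 in both fits and nearer to it with the trends removed, and IGFBP3 lies near -1.87 in the panel of H89 in S434A and near -1.65 in that of H89 in WT.

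Counted at any fold, 8 members rose and 1 fell in S434A against WT without H89, where 29.0% of all genes rose and 29.3% fell. The median log2 fold change was 1.18 over the members and -0.04 over all genes. Libraries did not overlap for 8 higher members and 1 lower, against 29.0% and 33.7% of genes. With H89 in WT, 8 members rose and 2 fell, where 38.8% of genes rose and 30.9% fell, with medians of 1.11 over the members and 0.20 over all genes. All 10 did not overlap, 8 higher (47.6% of genes) and 2 lower (35.5%). The median of all genes in that comparison was 0.05 with RLE factors in place of TMM factors. With H89 in S434A, 2 members rose (29.3% of genes) and 2 fell (22.7%), and the median was 0.01 over the members and 0.01 over all genes. Those 4 were IGF1R and IRS1 upward and IGF2 and IGFBP3 downward, and they were also the members without overlap (33.1% of genes higher, 23.2% lower). Leaving out replicate 1 of S434A without H89 gave 7 called members in that comparison in place of 4, where 49.5% of genes passed in place of 52.0%. With the trends removed, the members past 2-fold numbered 2 (IGF2R and IGFBP2) in S434A against WT without H89, where 11.4% of genes passed, 5 with H89 in WT (28.3%) and 1, IGFBP3, with H89 in S434A (5.49%). The 5 were IGF1R, IRS1, IGFBP1, IGFBP2 and IGFBP3, so that INSR, IGF2R and IGF2 were under 2-fold there and IGFBP1 and IGFBP2 over it. Exonic length was 6.26 kb for IGF2, 8.16 kb for IRS2, 9.95 kb for IRS1 and 10.8 kb for INSR. It was 13.9 kb for IGF1R and 17.9 kb for IGF2R, against 1.64 kb (IGFBP1) to 4.74 kb (IGFBP2) for the binding proteins. The shares of all genes are over genes of every length, and the part of length was otherwise not tested.

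With H89 present in both genotypes, the members of S434A and WT cells lay close together. Log2 fold changes of S434A against WT ran from -0.24 for INSR to 0.32 for IGFBP2, and none passed in edgeR's quasi-likelihood test (adjusted p = 1 for each). At an unadjusted p under 0.05 there were 3 members (INSR, IGF1R and IGFBP2) and 589 genes (4.08% of those tested). These counts depended on the fit. They were lowest without replicate 3 of S434A with H89 (292 genes, 0 members). With only the 2 groups fitted they were 1593 genes and 5 members. With the trends removed they were 1270 and 5, and with group weights in limma-voom 1830 and 6. Most genes, 2191, and 5 members came with the trends removed and without replicate 1 of S434A without H89. At an adjusted p under 0.05, DESeq2 called 2 genes, limma-voom 0 and limma-voom with group weights 3, with no member among them. EdgeR called 0 genes with the trends removed, and 93 when replicate 1 of S434A without H89 was also left out, again with no member. The members' values with the trends removed ran from -0.21 to 0.34 (adjusted p of 0.347 to 0.995). The 95% intervals were -0.42 to -0.06 for INSR, -0.39 to -0.01 for IGF1R, -0.39 to 0.25 for IGF2R and -0.45 to 0.25 for IGFBP3. Libraries of INSR, IGF1R, IRS1 and IGFBP4 did not overlap, all lower in S434A with H89 than in WT with H89, as for 8.46% of genes, and no member was higher without overlap, as 8.8% of genes were.

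The effects of H89 were compared between genotypes by the interaction term of the model. This term also equals the value of S434A against WT with H89 minus that without H89. It is therefore not independent of the comparisons above. The H89 effect in S434A minus that in WT passed for 9 of the 10 members, where 48.0% of genes passed. It was below 0 for 8 of them (24.0% of genes) and above 0 for 1 (24.0%). Past 2-fold there were 6 members, all below 0, where 24.2% of genes passed, 12.4% below 0 and 11.7% above. It was -1.83 for IGF2 (log2; SE 0.18, adjusted p = 2.52e-05), -1.81 for IGF2R (SE 0.21, adjusted p = 6.1e-05), -1.76 for IGF1R (SE 0.12, adjusted p = 7.46e-06), -1.45 for INSR (SE 0.12, adjusted p = 8.62e-06) and -1.26 for IRS1 (SE 0.11, adjusted p = 1.44e-05). It was 0.83 for IGFBP2 (SE 0.20, adjusted p = 0.00482), -0.49 for IGFBP1 (adjusted p = 0.00689), -0.52 for IGFBP4 (adjusted p = 0.0188) and -1.32 for IRS2 (SE 0.39, adjusted p = 0.0163). For IGFBP3 it was -0.22 (95% interval -0.71 to 0.27, adjusted p = 0.441). The median difference was -1.29 over the members and 0.07 over all genes. With the trends removed, the differences were -1.09 for IGF2, -1.05 for IGF2R, -1.03 for IGF1R, -0.83 for INSR and -0.75 for IRS1. They were 1.41 for IGFBP2, -0.90 for IGFBP1, -0.40 for IGFBP4 and -0.083 for IGFBP3. In that fit IRS2 no longer passed (-0.43, adjusted p = 0.441; with group weights in limma-voom, adjusted p = 0.0914), and 4 members passed 2-fold, where 13.2% of genes did. The IGFBP4 call ended without replicate 1 or 3 of S434A with H89, or replicate 1 or 2 of WT with H89 (adjusted p of 0.0502 to 0.061).

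**Figure D3:**
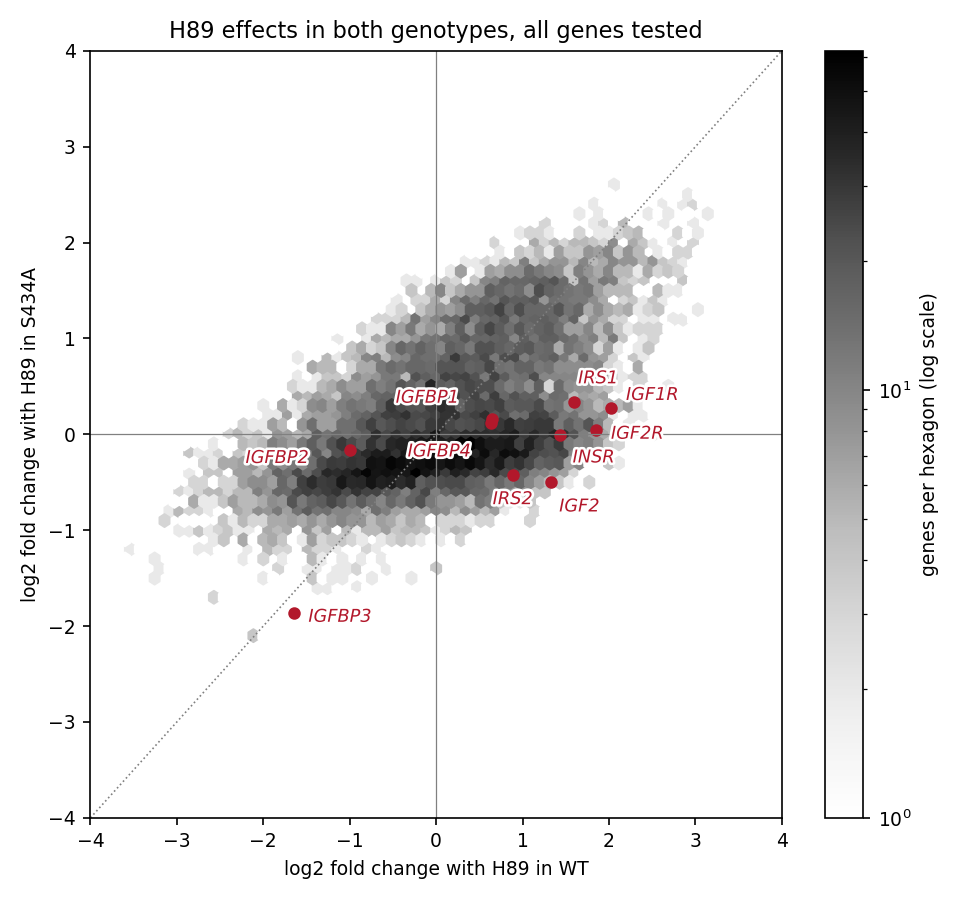
Log2 fold change with H89 in S434A (vertical axis) and in WT (horizontal axis) for all 14435 genes tested, shaded by genes per hexagon on a log scale, with the 10 members as red points. The dotted line marks equal effects. IGFBP3 lies near that line at -1.87 in S434A and -1.65 in WT, and IGF1R, IGF2R, INSR, IRS1 and IGF2 lie far to its right, at -0.50 to 0.34 in S434A and 1.33 to 2.03 in WT.

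Levels of different members can be compared per kilobase of exonic length, with a limit for IGF2, since 72.1% of its exonic bases are shared with other genes. Reads there may be missing, so the place of IGF2 in the order may be too low. IGFBP1 was the highest in all 4 groups, at 1627 ± 34.3 CPM per kb in S434A with H89, 1461 ± 204 CPM per kb in S434A without H89, 1602 ± 63.5 CPM per kb in WT with H89 and 1027 ± 20.2 CPM per kb in WT without H89 (SD, n = 3 each). IRS2 was the lowest in all 4, at 0.17, 0.22, 0.16 and 0.085 CPM per kb in the same order of groups. Second to IGFBP1 came IGF2R in the groups with H89 (24.2 CPM per kb in S434A and 25.4 CPM per kb in WT) and IGFBP3 in those without it (32.6 CPM per kb in S434A and 29.9 CPM per kb in WT). In S434A without H89 the libraries of IGFBP3, IGF2, IGF2R and IGFBP4 overlapped from each neighbour to the next, as did those of IGF1R, IRS1 and INSR. In S434A with H89, overlapping neighbours were IGFBP4 with IGF2, IGFBP3 with IRS1, and IRS1 with IGF1R. In WT with H89, IGF2R, IGFBP4 and IGF2 overlapped from one to the next, and so did IGFBP3, IGF1R and IRS1. In WT without H89 only IRS1, IGFBP2 and INSR overlapped, at 2.97, 2.84 and 2.56 CPM per kb, just above IGF1R at 2.26 CPM per kb.

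Ratios within a library do not depend on the scaling between libraries, and 3 of them, picked after the values were seen, are given as descriptions. IGF1R over INSR, per kilobase, was 1.37 ± 0.06 in S434A with H89, 1.13 ± 0.02 in S434A without H89, 1.33 ± 0.06 in WT with H89 and 0.89 ± 0.05 in WT without H89 (SD, n = 3 each). Thus INSR exceeded IGF1R per kilobase only in the WT libraries without H89, where the ratio was 0.83 to 0.93. With the trends removed, a step added after the data were seen, it was 0.89 to 1.004 there and at least 1.13 in each library of the other groups. IGFBP1 over IGFBP3 was 191 ± 53.0 in S434A with H89, 44.9 ± 4.87 in S434A without H89, 169 ± 18.8 in WT with H89 and 34.3 ± 0.999 in WT without H89. The high spread in S434A with H89 came from replicate 3, at 252 against 163 and 158 in replicates 1 and 2. IGF2 over IGF2R was 0.83 ± 0.04 in S434A with H89, 1.22 ± 0.10 in S434A without H89, 0.90 ± 0.04 in WT with H89 and 1.30 ± 0.03 in WT without H89. Because 72.1% of the exonic bases of IGF2 are shared with other genes, its level per kilobase and this ratio may be too low. As counted the ratio was below 1 in all 6 libraries with H89 and above 1 in all 6 without it. That split was lost with the trends removed, at 0.95 to 1.01 in S434A with H89, 0.79 to 1.29 in S434A without H89, 1.02 to 1.16 in WT with H89 and 1.06 to 1.09 in WT without H89. The ratio of IGFBP1 to IGFBP3 still separated the libraries by H89 in that step, with 167 to 278 in those with H89 and 24.9 to 57.1 in those without. Together the 10 members took 0.389% of all counts in S434A with H89, 0.351% in S434A without H89, 0.387% in WT with H89 and 0.18% in WT without H89, most of it from IGFBP1.

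**Figure D4:**
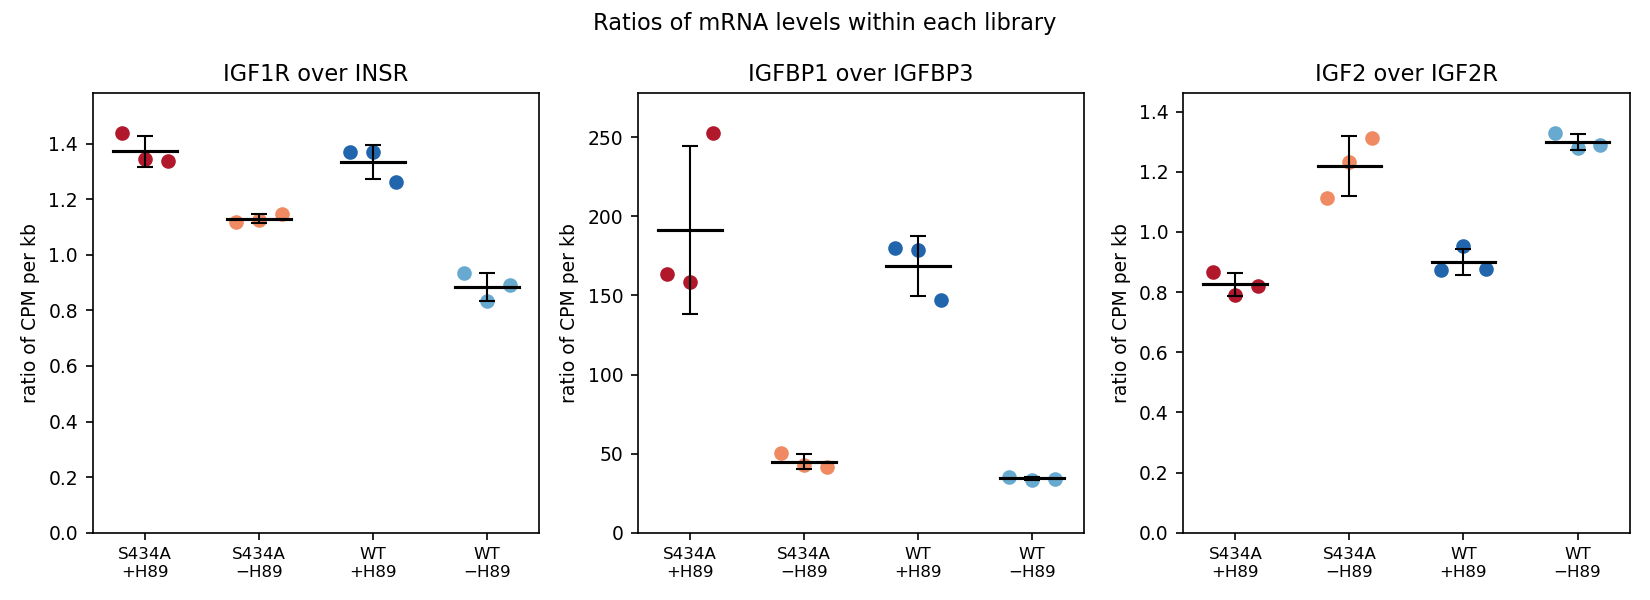
Ratios of CPM per kb within each library (vertical axes from 0) for IGF1R over INSR, IGFBP1 over IGFBP3 and IGF2 over IGF2R, in S434A with H89, S434A without H89, WT with H89 and WT without H89 from left to right. Points are libraries, and bars are the mean and SD of 3 replicates. The ratio of IGFBP1 to IGFBP3 is 147 to 252 in the libraries with H89 and 33.3 to 50.4 in those without.

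Other genes of the pathway were taken from 6 lists. Their counts stand against 29.0% of all genes higher and 29.3% lower in S434A against WT without H89, 38.8% and 30.9% with H89 in WT, and 29.3% and 22.7% with H89 in S434A. Of the further ligands and binding proteins, INS, IGF1 and IGFBP5 did not pass the filter on low counts. IGFBP6 and IGFBP7, which encode further secreted binding proteins, both fell with H89 in S434A (-1.003 and -1.04) and in WT (-1.84 and -2.15). With the trends removed these were -0.61 and -0.81 in S434A and -1.31 and -1.56 in WT. IGFBP6 was at 2.78 ± 0.333 CPM in S434A with H89 and 5.56 ± 0.449 CPM in S434A without H89, and at 2.65 ± 0.276 CPM in WT with H89 and 9.54 ± 0.496 CPM in WT without H89 (SD, n = 3 each). Both also fell in S434A against WT without H89 (-0.78 and -0.60, or -0.65 and -0.29 with the trends removed), while IGFALS, the acid-labile subunit of the serum IGF complex, rose (1.12, 0.62 with the trends removed). IGFALS was at a low level, 1.78 ± 0.73 CPM in S434A without H89 and 0.81 ± 0.064 CPM in WT without H89.

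Of 16 adaptors and brakes at the receptors, 8 rose and 1 fell in S434A against WT without H89, with H89 in WT 11 rose and 1 fell, and with H89 in S434A 8 rose and 2 fell. The medians were 0.49, 0.86 and 0.41, and 0.18, 0.75 and 0.056 with the trends removed. CBL, a ubiquitin ligase acting on receptor tyrosine kinases, rose by 1.43 in S434A against WT without H89 and by 2.44 with H89 in WT (1.08 and 1.66 with the trends removed). GAB1, a docking protein, rose with H89 by 1.59 in S434A and by 2.27 in WT, and with the trends removed the S434A value was 0.28 and did not pass. SOCS3, which blocks insulin receptor signalling, fell by 0.86 with H89 in S434A (by 0.515 with the trends removed). GRB2, which links receptors to RAS, fell by 0.25 in S434A against WT without H89 and by 0.34 with H89 in WT (0.37 and 0.32 with the trends removed). Among 5 genes for processing and clearance, FURIN, the protease that cleaves both receptor precursors, rose by 1.20 in S434A against WT without H89 and by 1.21 with H89 in WT (0.51 and 0.83 with the trends removed).

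Of 29 PI3 kinase, AKT and mTOR genes and their brakes, 16 rose and 5 fell in S434A against WT without H89, with H89 in WT 19 rose and 7 fell, and with H89 in S434A 14 rose and 7 fell (medians 0.54, 0.97 and 0.18, and 0.24, 0.35 and 0.033 with the trends removed). Past 2-fold with H89 in WT, 13 of them rose and 3 fell, against 22.2% and 15.8% of all genes. With the trends removed 3 rose and 3 fell, where 28.3% of all genes passed in either direction. MTOR, the kinase of both mTOR complexes, rose by 1.49 in S434A against WT without H89, and PHLPP1, an AKT phosphatase, by 1.43 (0.97 and 1.01 with the trends removed). RHEB, the GTPase that activates mTORC1, was at 78.2 ± 7.75 CPM in S434A without H89 and 152 ± 1.52 CPM in WT without H89, a log2 fold change of -0.96 (-0.42 with the trends removed), and it fell by 1.25 with H89 in WT (by 1.05 with the trends removed). RPS6KB2, an S6 kinase, fell in S434A against WT without H89 (-0.52, and -1.19 with the trends removed), with H89 in WT (-1.11, and -1.54) and with H89 in S434A (-0.50), the last of which did not pass with the trends removed (-0.23, adjusted p = 0.075).

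Of 17 FOXO factors and insulin-regulated transcripts, 9 rose and 1 fell in S434A against WT without H89, with H89 in WT 11 rose and 2 fell, and with H89 in S434A 7 rose and 4 fell (medians 0.63, 0.79 and 0.21, and 0.498, 0.76 and 0.089 with the trends removed). PCK1, a key enzyme of gluconeogenesis, fell with H89 by 1.30 in S434A and by 1.07 in WT, and G6PC1, which releases free glucose, by 1.57 and 0.92. The values with the trends removed were -1.32 in S434A and -1.35 in WT for PCK1, and -1.55 in S434A and -0.77 in WT for G6PC1. PCK1 was at 52.0 ± 8.25 CPM in S434A with H89 and 128 ± 7.11 CPM in S434A without H89, and at 63.0 ± 4.24 CPM in WT with H89 and 133 ± 1.78 CPM in WT without H89 (SD, n = 3 each). FOXO1, a transcription factor that insulin keeps out of the nucleus, rose by 1.45 with H89 in WT, and BCL6, a repressor, by 1.60 (1.30 and 1.43 with the trends removed). Around IGF2, MRPL23, a neighbour at the locus, fell by 1.15 in S434A against WT without H89 and by 1.92 with H89 in WT (1.52 and 1.98 with the trends removed). IGF2-AS, which overlaps IGF2 on the other strand, fell by 1.54 with H89 in S434A (by 1.21 with the trends removed). Its mean level was low, at 1.15 CPM in S434A with H89 and 3.34 CPM in S434A without H89. In WT it was also lower with H89 (1.14 CPM) than without it (2.42 CPM), whereas IGF2 rose with H89 there. Without a stated strand option, reads of the 2 genes cannot be told apart in the 91 exonic bases that they share. The mRNA-binding protein gene IGF2BP1 rose by 1.04 in S434A against WT without H89 and by 1.21 with H89 in WT (0.54 and 0.64 with the trends removed). No gene of the 6 lists passed in S434A against WT with H89.

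The genes most like each member were found by Pearson's r of log2 CPM over the 12 libraries among 11046 genes, a description in which the points share 4 groups and, within a library, the same depth and make-up. IGFBP3 was most like GPX3, which encodes a secreted glutathione peroxidase (r = 0.992, and 0.997 with the trends removed), and PCK1 (0.983 and 0.977). INSR was most like BAZ2A (0.997) and HK2 (0.996), and IGF1R like LAMC1 and ZMIZ1 (both 0.996). IGF2R was most like MINK1 and LRP1 (both 0.999), at 0.83 and 0.928 with the trends removed. IGF2 was most like EHBP1L1 and SLC22A18 (both 0.992, and 0.591 and 0.944 with the trends removed), and IRS1 like CAMSAP1 and LAMC1 (both 0.997). IGFBP1 was most like SLC29A3 (0.995) and KIF3C (0.994), IGFBP2 like MT-ND3 (0.98, and 0.448 with the trends removed) and UBE3B (0.975), and IGFBP4 like KCTD13 (0.967) and TCTN3 (0.965). Such values were common, since 1676 genes had an r over 0.9 with INSR and 449 with IGFBP3. IRS2 had no gene at that level, and its highest were EIF3L and PCGF3-AS1 at 0.88.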

How the data were processed

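HepG2 RNA sequencing libraries in 4 groups of 3 biological replicates were used. Per the file headers, the authors counted read pairs over the exons of each gene with featureCounts 2.0.1 and deposited raw counts. The headers set no option for strand, multimapping or overlapping genes. Reads aligned to a near copy or in exons that genes share may thus be missing. The exonic gene lengths used per kilobase, in bases, and the hg19 positions are also deposited, per the file headers. Bowtie 0.12.2 and hg19 are named per the submitters' processing notes. Trimming, strandedness and sequencing batches are not stated in those sources.

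One model of all 12 libraries (17562754 to 37187794 counts) was fitted, with no block, by edgeR's robust quasi-likelihood method (version 4.0.16, in R 4.3.3). Genes were kept by filterByExpr over the groups with a minimum count of 10, and TMM gave the scaling. Each comparison's p-values over 14435 genes had the Benjamini-Hochberg adjustment. A call is an adjusted p under 0.05, and the design text also asks for a 2-fold change. CPM values are TMM-scaled. SE is the fold change divided by the square root of F. The second fit used an offset from splines (5 degrees of freedom each) on GC content and length. GC content came from GENCODE 29 transcripts by identifier for 14280 genes. Promoters are RefSeq's, GRCh38.p14. Results were recomputed with DESeq2 1.42.0, with limma-voom (limma 3.58.1) with or without group weights, with upper-quartile or RLE scaling, under other filters, within the compared groups alone, with replicate number as block, and without each library in turn.

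All 10 members are named. Of each list, up to 2 genes with the smallest p in each direction per comparison were eligible to be named, and for each member the 2 most alike genes. The members and lists were chosen with earlier results of these data known, so they are no independent evidence. Nothing says how the replicates were grown, so p-values measure only a spread between these libraries. In the reported fit that spread was estimated over all 4 groups together and not from the groups compared, although the groups differed in spread. The counts of WT libraries without H89 differed least (chi-square per degree of freedom 1.62 to 2.03 between replicates, against 3.85 to 156 in the other groups). Fits were run on simulated counts, without a trend and with a GC trend added to the S434A libraries without H89. The changed genes there were altered alike in all groups but WT without H89, and no other group had a trend added. Removal of a length trend was not tested there. Those fits thus cannot show how trend removal acts on the present data.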

Additional observations from a re-analysis of the deposited data

Results flagged for a closer look

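The effect of H89 differed between genotypes for 9 members by the interaction term of edgeR's quasi-likelihood test, as the H89 effect in S434A minus that in WT on the log2 scale. The differences were -1.83 for IGF2, -1.81 for IGF2R, -1.76 for IGF1R, -1.45 for INSR, -1.32 for IRS2 and -1.26 for IRS1. They were -0.52 for IGFBP4, -0.49 for IGFBP1 and 0.83 for IGFBP2. In the same test 48.0% of all genes passed, and the value for IRS2 did not pass once the trends on GC content and length were removed. Each difference also equals the value of S434A against WT with H89 minus that without H89. The differences are thus not independent of those comparisons.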

How the results depend on the processing

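Calls and directions of the members were the same under limma-voom, the filter of 1 CPM in 3 libraries and the replicate block (50 of 50 values each), and the block left the counts past 2-fold at 6, 0, 6, 1 and 6. Deviations of same-numbered libraries from their group means had correlations of -0.13 to 0.42, over 0.1 in 4 of 18 pairs. The labels do not say that a number marks a shared culture or day, so the numbers are not read as pairs. With the trends on GC content and length removed, the members past 2-fold in S434A against WT without H89 numbered 2 in place of 6, again 2 with the replicate block, and 1 without replicate 1 of S434A without H89. In the last fit the difference of H89 effects had 3 in place of 6. With H89 in S434A, members at an adjusted p under 0.05 numbered 2 without a filter, 1 with only the groups compared and 2 to 7 when single libraries were left out, against 4. Signs turned for the values below, none of which passed in the reported fit. IGFBP3 in S434A against WT without H89 was -0.023 and, with the block, -0.025 with the trends removed. With H89, IGFBP1 in S434A against WT was -0.039, -0.036 (with the block) and -0.040 (without replicate 1 of S434A without H89) with the trends removed and -0.011 to 0.058 over single libraries left out, and IGFBP3 was -0.24 to 0.093. For H89 in S434A, IGF2R was -0.052 with RLE factors and DESeq2, -0.083 with upper-quartile factors, -0.060 without a filter, -0.19, -0.17 and -0.024 in the same 3 fits with the trends removed, and -0.15 to 0.20 over single libraries. IGFBP2 was 0.15, 0.15 and 0.12 with the trends removed, and IGFBP4 -0.0089 with upper-quartile factors and -0.054 to 0.25 over single libraries. INSR was -0.16 to 0.016, and the IGFBP3 difference of H89 effects -0.33 to 9.4e-05, over single libraries. The cause was not tested. IRS2 had 10 to 41 counts in a library.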
